A study of Mus musculus with 3 samples.

Results

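Fibroblast growth factors (FGF), platelet-derived growth factors (PDGF), vascular endothelial growth factors (VEGF), hepatocyte growth factor (HGF) and the receptors of these families were described in sorted cells of the mouse leptomeninges. The set was defined by gene symbol alone: every gene of the count table named as an FGF, an FGF receptor, a PDGF, a PDGF receptor or a VEGF, plus Fgfrl1, Pdgfrl, Pgf, Hgf, Met and Egfr. It held 41 of the 46983 genes in the table. No row carried the symbol Vegfd; the row with the older symbol Figf (ENSMUSG00000031380.10) has the identifier of Vegfd, and its values are given beside the set without being counted in it. RNA came from the pia-enriched fraction of vehicle-treated mice, obtained by microdissection and flow sorting, and was sequenced as 3 libraries of 1 group (replicates 1, 2 and 3). Nothing in the labels said what the vehicle was given for, nor the strain, age or sex of the mice, the gate of the sort or whether animals were pooled. No treated group was analysed here, so the comparisons are between genes and between replicate libraries. Whether the replicates came from separate animals or preparations is not stated, so their spread, and any p-value based on it, may be technical.

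Members of these families are secreted or membrane-bound proteins that bind receptor tyrosine kinases. Binding brings receptor chains together, and the activated kinases signal through adaptor proteins to the RAS-ERK and phosphoinositide 3-kinase pathways. PDGF receptors are classical receptors of fibroblasts and of the mural cells of vessels, whereas the VEGF receptor kinases are mainly endothelial. In the meninges, fibroblasts have been described both as sources of growth factors for the brain and vessels and as cells that respond to PDGF and FGF.

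Gene counts ranged from 21002860 to 28704952 per library. Levels are given as CPM (counts per 1000000 gene counts), on library sizes scaled by the trimmed mean of M-values (TMM). A count of 0 allowed up to 3 counts, or 0.152, 0.101 and 0.116 CPM in libraries 1, 2 and 3; this limit covers counting error only. The sorted cells carried abundant fibroblast markers (all 5 tested, led by Col1a2 and Col1a1, summed level 23342 to 28952 CPM). Markers of mural cells (led by Acta2 and Tagln, 2620, 2312 and 4531 CPM in libraries 1, 2 and 3), Schwann cells (Pmp22 and Egr2, 1547, 1438 and 2159 CPM) and oligodendrocytes (Mbp and Cnp, 1593, 1351 and 2487 CPM) were also present. The lists of endothelial (Esam and Cdh5), lymphatic (Lyve1 and Mmrn1), astrocyte (S100b and Slc1a3), neuronal (Snap25 and Tubb3), arachnoid barrier (Cldn11 and Krt19), platelet (Itga2b and Pf4), oligodendrocyte precursor (Sox10 and Ptprz1) and erythroid genes (Hbb-bs and Hba-a1) summed to between 8.54 and 792 CPM in any library. Library 1 stood apart in the macrophage list (Lyz2 and C1qb), at 14.4 CPM against 289 and 828 CPM. It did so too in the choroid plexus list (Ttr and Enpp2), at 129 CPM against 3315 and 5024 CPM. The erythroid list was highest in library 1, at 792 CPM against 195 and 326 CPM in libraries 2 and 3. Of 74 marker genes tested, 14 were called variable between libraries by the goodness-of-fit test described below, beside 0.437% of all tested genes. These were 9 of 9 for macrophages, 4 of 8 for choroid plexus and 1 of 2 for oligodendrocyte precursors. Of defining markers, Mmrn1, Mog, Olig1 and Olig2 had no count in library 2, and Pcdh15 had none in library 1.

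The families were unevenly filled. Of the 41 members, 27 had a mean above 1 CPM, 15 above 10 CPM and 7 above 100 CPM, whereas 6 had no count in any library. The 7 most abundant were Pdgfrl, Pdgfrb, Egfr, Pgf, Fgfr1, Pdgfd and Pdgfra. The 5 leading members (Pdgfrl, Pdgfrb, Egfr, Pgf and Fgfr1) took 76.7% ± 4.94 of all member counts (SD, n = 3). As a whole the set took 0.287%, 0.273% and 0.231% of gene counts in libraries 1, 2 and 3. The 26 members that passed the filter on low counts had a median log2(CPM + 1) of 4.07, beside 4.18 for all 14409 genes that passed it. In bulk RNA, fewer cells of a type and less RNA per cell cannot be told apart, which applies to every level below.

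**Figure D1:**
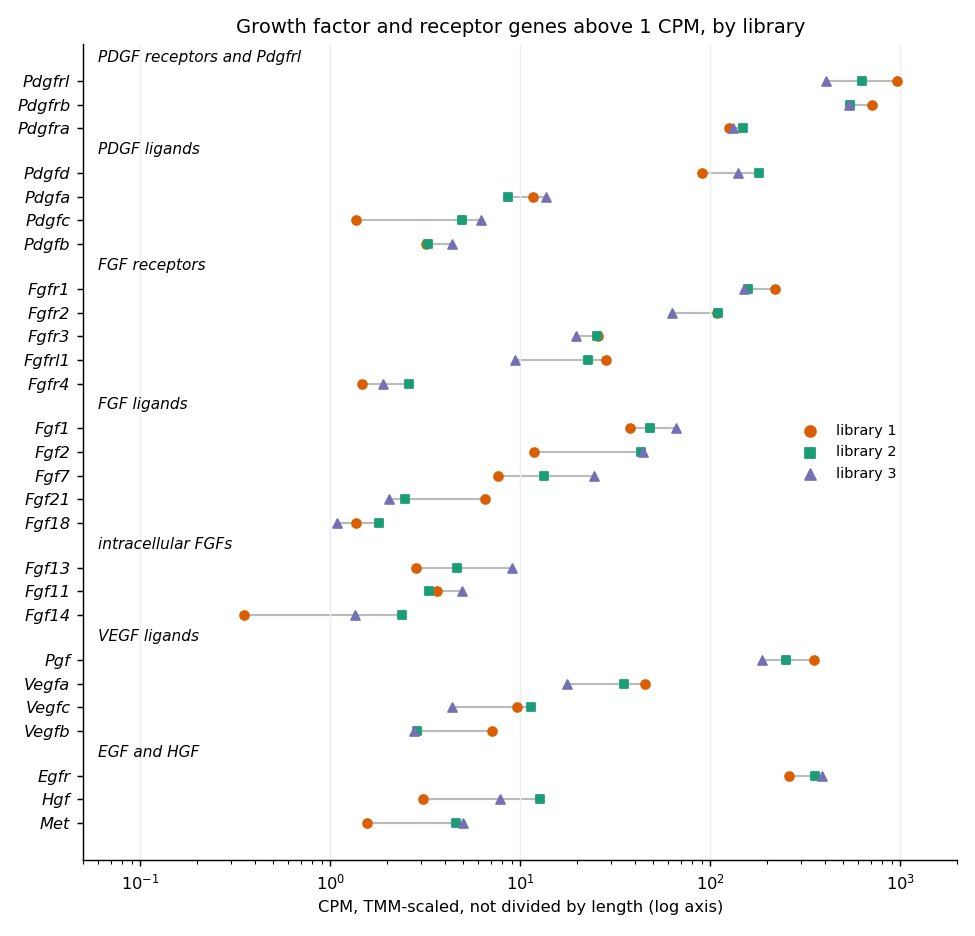
TMM-scaled CPM (log axis) of the 27 members with a mean above 1 CPM, grouped by role; each symbol is 1 library and the grey line joins the lowest and highest. Pdgfrl, Pdgfrb, Egfr, Pgf and Fgfr1 lie highest, and Pdgfc, Fgf2, Hgf and Met are lowest in library 1.

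Among PDGF receptors, the beta chain dominated. Pdgfrb (ENSMUSG00000024620.11, chromosome 18, 61045150 to 61085061), the receptor of PDGF-B and PDGF-D, was at 712, 542 and 536 CPM in libraries 1, 2 and 3 (597 ± 100, SD, n = 3). Pdgfra (ENSMUSG00000029231.15, chromosome 5, 75152292 to 75198215), which binds PDGF-A, PDGF-B and PDGF-C and marks fibroblasts and oligodendrocyte precursors, was at 125, 148 and 131 CPM (135 ± 11.9). Of the 7 most abundant members, Pdgfra had the smallest spread relative to its mean. Per kilobase of exon, the scale on which levels of different genes are compared here, Pdgfrb was at 109 ± 18.3 CPM and Pdgfra at 13.4 ± 1.19 CPM, with no overlap between them. Pdgfra was 8.00-fold lower than Pdgfrb (geometric mean over libraries of values per kilobase plus 0.1), and lower in 3 of 3 libraries. Pdgfrb supplied 91.2%, 87.0% and 88.2% of the summed level of both receptors per kilobase. Mural cells also carry Pdgfrb, and the summed mural markers were at 2620, 2312 and 4531 CPM in libraries 1, 2 and 3. Pdgfrb was nearly equal in libraries 2 and 3 (542 and 536 CPM) and highest in library 1. The part of mural cells in the Pdgfrb level was not tested. Oligodendrocyte precursors carry Pdgfra, and their 6 markers (Sox10 and Ptprz1 the most abundant) summed to 20.2, 21.2 and 65.9 CPM. Most of the sum in libraries 1 and 2 was Sox10 alone (17.9, 13.7 and 28.7 CPM in libraries 1, 2 and 3). Olig1 and Olig2 had no count in library 2, so the sum is a weak measure of precursors. Pdgfra was highest in library 2 and this list in library 3; the part of precursors in the Pdgfra level was not tested.

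Pdgfrl (ENSMUSG00000031595.9, chromosome 8, 40926212 to 40990785) had the highest level of the set. It encodes a protein that resembles the extracellular part of a PDGF receptor and has no kinase domain. Its level was 966, 633 and 407 CPM in libraries 1, 2 and 3 (669 ± 281), or 214 ± 89.9 CPM per kilobase. The libraries spread widely, and the lowest value per kilobase of Pdgfrl (130.4, in library 3) lay within 1% of the highest of Pdgfrb, in library 1.

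Of the PDGF ligands, Pdgfd was the only one above 100 CPM. Pdgfd (ENSMUSG00000032006.14, chromosome 9, 6168584 to 6378850), a ligand of the beta receptor that is secreted in latent form, was at 90.4, 180 and 141 CPM in libraries 1, 2 and 3 (137 ± 44.8). It made up 85.7%, 92.6% and 87.0% of the summed PDGF ligands per kilobase. The other ligands were all low. Pdgfa, the classical alpha receptor ligand, was at 11.7, 8.64 and 13.7 CPM (11.3 ± 2.55). Pdgfb, which endothelial cells use to recruit mural cells and platelets store, was at 3.18, 3.26 and 4.40 CPM (3.61 ± 0.68). Pdgfc, the other latent ligand, was at 1.36, 4.94 and 6.21 CPM (4.17 ± 2.51). Like Pdgfd, Pdgfc was lowest in library 1, on 27 counts against 147 and 161. Per kilobase, Pdgfa exceeded Pdgfb by 1.94 ± 0.23 on the log2 scale (3.83-fold) and Pdgfc by 2.19 ± 1.05 (4.57-fold), and the difference of Pdgfc from Pdgfd was -5.70 ± 0.60 (52.1-fold lower). The difference between Pdgfa and Pdgfc was 1.59 when library 1 was left out.

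Upstream windows of Egfr, Pdgfd and Pdgfra are shown because these are leading members of the set whose 250 bases before the RefSeq start lie outside annotated exons. Sequences are from RefSeq on GRCm38.p6, 5′ to 3′ on the plus strand, and capitals mark matches to the GC box (GGGCGG) or the TATA box (TATAAA) on either strand.
Egfr chr11:16751953-16752202: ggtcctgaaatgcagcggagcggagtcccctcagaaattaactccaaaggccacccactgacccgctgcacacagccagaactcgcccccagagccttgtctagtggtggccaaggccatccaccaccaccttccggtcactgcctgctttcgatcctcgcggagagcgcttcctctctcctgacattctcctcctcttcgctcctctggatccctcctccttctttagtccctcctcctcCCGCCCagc
Pdgfd chr9:6168236-6168485: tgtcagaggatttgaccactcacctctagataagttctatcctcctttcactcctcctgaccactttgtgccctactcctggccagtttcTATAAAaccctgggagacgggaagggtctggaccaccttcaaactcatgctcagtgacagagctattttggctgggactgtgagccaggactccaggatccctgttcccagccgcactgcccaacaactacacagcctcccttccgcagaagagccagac
Pdgfra chr5:75152001-75152250: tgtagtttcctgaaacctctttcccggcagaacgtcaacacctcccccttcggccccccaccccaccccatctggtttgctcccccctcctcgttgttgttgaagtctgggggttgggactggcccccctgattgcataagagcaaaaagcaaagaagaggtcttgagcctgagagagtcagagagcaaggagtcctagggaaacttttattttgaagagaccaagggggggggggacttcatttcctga
The Egfr window held 1 GC box, the Pdgfd window 1 TATA box, and the Pdgfra window no match to these letters. The Pdgfd and Pdgfra windows end at bases 6168485 and 75152250, short of the GENCODE gene starts at 6168584 and 75152292. In the Pdgfd window the match lies nearer the upstream end than the RefSeq start. Whether any match acts in a promoter was not tested. Of 32851 windows of the same length, 32.7% held a GC box and 12.4% a TATA box. The GC content was 60.8%, 53.6% and 54.4% in the Egfr, Pdgfd and Pdgfra windows, beside a median of 52.4% over all windows. Windows were matched by symbol for 21 of the 26 members that passed the filter on low counts; those of Pdgfrl and Fgfr1 were not analysed here.

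FGF receptors were dominated by Fgfr1 and Fgfr2. Fgfr1 (ENSMUSG00000031565.17, chromosome 8, 25513654 to 25575718), the main FGF receptor of mesenchymal cells, was at 218, 157 and 150 CPM in libraries 1, 2 and 3 (175 ± 37.4, SD, n = 3). Fgfr2, whose splice forms are divided between epithelium and mesenchyme, was at 108, 110 and 63.2 CPM (93.6 ± 26.4). The count table does not separate the splice forms. Fgfr3, a receptor prominent in astrocytes and cartilage, was at 25.5, 25.2 and 19.7 CPM (23.5 ± 3.25). Fgfr4 was at 1.47, 2.59 and 1.89 CPM (1.98 ± 0.57), the lowest of the 4 kinases. Fgfrl1, which binds FGFs and lacks the kinase domain, was at 28.2, 22.8 and 9.41 CPM (20.2 ± 9.69) and was lowest in library 3.

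Per kilobase of exon, Fgfr1 supplied 60.5%, 51.7% and 61.8% of the summed level of the 4 FGF receptor kinases, and Fgfr2 28.6%, 34.5% and 24.8%. Shares of Fgfr3 were 9.75% to 11.4% and of Fgfr4 1.13% to 2.37%. Fgfr1 exceeded Fgfr2 by 0.99 ± 0.37 on the log2 scale (1.98-fold), Fgfr3 by 2.39 ± 0.23 (5.24-fold), Fgfr4 by 4.77 ± 0.60 (27.2-fold) and Fgfrl1 by 1.40 ± 0.64 (2.64-fold). Each of these 4 differences had the same sign in 3 of 3 libraries. With the longest transcript as the length in place of all exons, the difference to Fgfr4 became 5.66 and that to Fgfrl1 2.11.

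FGF genes other than receptors came to 22 members, of which 8 had a mean above 1 CPM and 3 above 10 CPM. These counts, and the shares of summed FGF ligands below, include the 4 intracellular members described further on. The leading 3 differed in type. Fgf1 (chromosome 18, 38838673 to 38929472), which has no signal peptide and binds all FGF receptors, was at 37.8, 48.5 and 66.2 CPM in libraries 1, 2 and 3 (50.8 ± 14.3). Fgf2 (ENSMUSG00000037225.13, chromosome 3, 37348346 to 37410108), its close relative and a mitogen of fibroblasts and endothelium, was at 11.9, 43.0 and 44.4 CPM (33.1 ± 18.4). Library 1 lay apart, on 235 counts against 1280 and 1152. Fgf7, a mesenchymal ligand of the epithelial form of Fgfr2, was at 7.63, 13.3 and 24.4 CPM (15.1 ± 8.53). Per kilobase, Fgf1 exceeded Fgf2 by 1.09 ± 0.75 on the log2 scale (2.13-fold), and the ranges of their levels did not overlap, with 6.93 as the lowest value of Fgf1 and 6.55 as the highest of Fgf2. Of the summed FGF ligands per kilobase, Fgf1 held 32.3%, 32.8% and 35.5%, whereas Fgf2 held 8.16%, 23.5% and 19.2%. Without division by length, the share of Fgf1 was 51.2%, 39.6% and 42.3%, highest in library 1. Per kilobase again, Fgf7 held 10.9%, 15.2% and 22.0%, lowest in library 1 as was Fgf2. Fgf2 shares 640 exonic bases with Nudt6 in the annotation, and the strand setting of the counting is not given in the sources used here, so its reads and those of Nudt6 cannot be told apart there. The same holds for Fgfr3 (998 bases shared with G630022F23Rik), Pdgfa (813 with 6330403L08Rik), Hgf (484 with Gm43489), Pdgfra (456 with Gm42802) and Fgfr2 (314 with Ctbp2).

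Lower FGF ligands included Fgf21, a hormone-like factor of metabolism, at 6.52, 2.49 and 2.04 CPM (3.68 ± 2.46), highest in library 1. Its short transcript gave it 31.9%, 9.67% and 6.29% of the summed FGF ligands per kilobase, so that in library 1 it stood beside Fgf1. Fgf18, a factor of skeletal development, was at 1.36, 1.81 and 1.08 CPM (1.42 ± 0.37). Its partners in the same subfamily, Fgf8 and Fgf17, had no count and at most 5 counts. Fgf10, the other mesenchymal ligand of the epithelial Fgfr2 form, was at 0.808, 0.269 and 1.31 CPM, and Fgf9, a secreted paracrine ligand, at 0.404, 0.571 and 0.617 CPM. Fgf15, an intestinal hormone, had 11, 5 and 0 counts, and Fgf4 had 0, 15 and 4. Fgf16 had 5 counts and Fgf6 a single count, all in library 2. Fgf3, Fgf5, Fgf8, Fgf20, Fgf22 and Fgf23 had no count in any library, which allows up to 0.152 CPM in library 1, where the limit was highest.

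The 4 intracellular members, which are not secreted and regulate sodium channels, are neuronal genes in the brain. Fgf13 was at 2.83, 4.67 and 9.02 CPM (5.51 ± 3.18) and Fgf11 at 3.64, 3.33 and 4.94 CPM (3.97 ± 0.85). Fgf14 was at 0.354, 2.39 and 1.35 CPM and Fgf12 at 0.051, 1.11 and 0.810 CPM, and both were lowest in library 1, on 7 and 1 counts. The summed neuronal markers were 72.2, 87.4 and 83.2 CPM in libraries 1, 2 and 3; their part in these levels was not tested.

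Among VEGF ligands, Pgf exceeded Vegfa. Pgf (ENSMUSG00000004791.6, chromosome 12, 85166635 to 85177790) encodes placental growth factor, a ligand of the receptor FLT1. Its level was 352, 252 and 188 CPM in libraries 1, 2 and 3 (264 ± 82.8, SD, n = 3), or 85.2%, 83.5% and 87.5% of the summed VEGF ligands per kilobase, with Figf among them. Vegfa (ENSMUSG00000023951.16, chromosome 17, 46016993 to 46032369), the main angiogenic ligand and a target of hypoxia-inducible factors, was at 45.5, 35.3 and 17.7 CPM (32.8 ± 14.1). Both genes were highest in library 1 and lowest in library 3. Per kilobase, the difference of Vegfa from Pgf was -3.61 ± 0.29 on the log2 scale (12.2-fold lower, in 3 of 3 libraries).

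The lymphatic ligands Vegfc and Vegfd were lower still. Vegfc was at 9.65, 11.5 and 4.36 CPM (8.49 ± 3.69), and Figf, the row of Vegfd, at 5.05, 5.81 and 3.86 CPM (4.91 ± 0.99). Vegfb, which binds FLT1, was at 7.12, 2.86 and 2.78 CPM (4.25 ± 2.49) and was highest in library 1. Vegfa exceeded Vegfb by 1.53 ± 0.53 on the log2 scale per kilobase (2.89-fold), and Vegfc exceeded Vegfd by 0.65 ± 0.44 (1.57-fold), although the ranges of Vegfc and Vegfd overlapped.

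**Figure D2:**
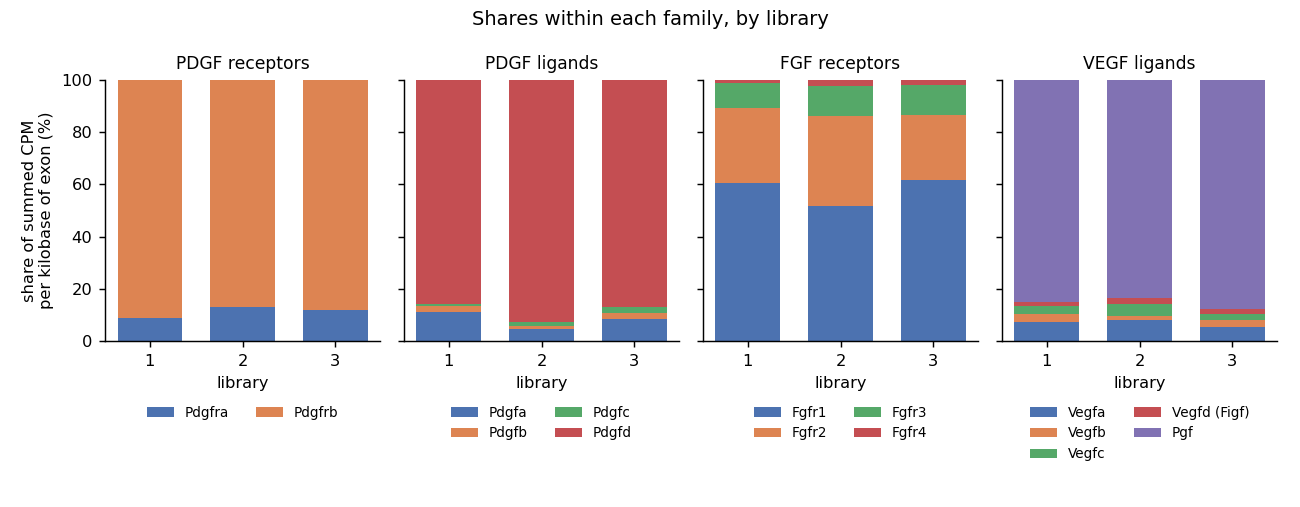
Stacked bars of the share (%) of the summed CPM per kilobase of exon that each gene holds within its family, with 1 bar per library. Pdgfrb, Pdgfd and Pgf hold at least 83.5% of their families in each library, while the FGF receptors are divided between Fgfr1 (51.7% to 61.8%) and Fgfr2.

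The receptor kinases for VEGF were low in the sorted cells, and the co-receptor Nrp1 was high. Kdr, the main signalling receptor of VEGF-A, was at 10.8, 4.13 and 8.68 CPM in libraries 1, 2 and 3, and Flt1 was at 2.93, 4.03 and 6.13 CPM. Flt4, the receptor of the lymphatic ligands, was at 1.97, 0.302 and 0.424 CPM. Kdr held 72.4%, 57.7% and 65.5% of these 3 receptors per kilobase. Nrp1, which binds VEGF and semaphorins and is also found on fibroblasts, was at 492, 583 and 583 CPM, and Nrp2 at 10.9, 21.6 and 18.8 CPM. The 8 endothelial markers summed to 155, 116 and 178 CPM, and 4 of the 8 were lowest in library 2, as Kdr was, whereas Flt1 was lowest in library 1. The part of endothelial cells in these levels was not tested.

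Egfr was the third most abundant member. Egfr (ENSMUSG00000020122.16, chromosome 11, 16752203 to 16918158), the receptor of the EGF family, was at 261, 358 and 390 CPM (336 ± 67.1), or 29.7 ± 5.93 CPM per kilobase, and was lowest in library 1. Among its ligands and relatives, 0 of 9 tested genes were called variable between libraries, beside 0.437% of all tested genes. Errfi1, an inhibitor of the EGF receptor, was at 115, 95.3 and 91.7 CPM and Hbegf, a heparin-binding ligand, at 98.8, 60.5 and 120 CPM. Erbb3, a neuregulin receptor of Schwann cells, was at 18.8, 19.1 and 47.4 CPM, highest in library 3 as were the summed Schwann cell markers; their part in it was not tested. Hbegf was the one abundant ligand: Egf and Tgfa did not exceed 5.78 CPM in any library, Btc stayed below 1 CPM, Areg and Epgn were at most at 0.101 and 0.039 CPM, and Ereg had no count.

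Hgf and its receptor Met were both low. Hgf, a mesenchymal ligand secreted as an inactive precursor, was at 3.08, 12.7 and 7.87 CPM in libraries 1, 2 and 3 (7.89 ± 4.83). Met, mainly an epithelial receptor, was at 1.57, 4.60 and 4.97 CPM (3.71 ± 1.87). Library 1 was lowest for both. Hgf exceeded Met by 0.97 ± 0.40 per kilobase on the log2 scale (1.95-fold), or by 1.79 with the longest transcript as the length.

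The 13 differences between genes given above were each tested by an exact permutation test, two-sided, that flips signs over libraries. Every one gave an exact p = 0.25, also after Benjamini-Hochberg adjustment over the 13, and 3 libraries allow no smaller value. Every difference had the same sign in 3 of 3 libraries. Ordered by level per kilobase, 28 genes above 1 CPM (Figf included) formed 27 neighbouring pairs, and the library ranges of 5 of these pairs did not overlap. These were Pdgfrl above Pdgfrb, Pgf above Pdgfd, Egfr above Fgfr1, Fgfr1 above Pdgfra and Pdgfra above Fgf1. Pdgfrb and Pgf (90.9 ± 28.5 CPM per kilobase) overlapped, as did Pdgfd (43.4 ± 14.2) and Egfr. From Fgf1 (9.31 ± 2.62) downwards, through Fgfr2, Vegfa, Fgfrl1, Fgf2, Fgf7 and Fgf21, each gene overlapped the next in the order, so that neighbours were not resolved; genes farther apart, such as Fgf1 and Fgf2, could still be separate.

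The members' variation between replicate libraries was then set against that of all genes. By edgeR's goodness-of-fit test with Benjamini-Hochberg adjustment over 14409 genes, 0 of 26 tested members were called variable between libraries. Of all tested genes, 0.437% were called (63 genes), so a set of 26 may well hold no call. The test asks whether the spread of a gene exceeds the dispersion fitted to these same libraries. A gene that was not called may therefore still differ between them. At an unadjusted p below 0.05 in the same edgeR test there was 1 member, Fgf2 (edgeR adjusted p = 0.441, from 0.350 to 0.9996 over the alternatives), beside 1015 of all genes. The other 15 members did not pass the filter, 6 of them with no count. With 1 group, the filter asks for its minimum in every library, so genes low in a single library were not tested. Fgf14, on 7, 71 and 35 counts in libraries 1, 2 and 3, was such a member. Differences between the highest and lowest library could still be large: 12 of the 26 (46.2%) differed more than 2-fold, as did 35.8% of all tested genes. The median range over libraries was 0.94 on the log2(CPM + 1) scale for the members and 0.67 for all tested genes. Library 1 was lowest for 12 of the 26 members, library 3 for 12 and library 2 for 2; over all tested genes these libraries were lowest in 40.4%, 27.2% and 32.3%.

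Base composition moved with the deviations of library 1. Several members low in library 1 had transcripts poor in G and C: Fgf7 (38.0% GC), Hgf (39.9%), Pdgfd (39.9%) and Fgf2 (42.2%) lay between 0.81 and 1.80 below the mean of libraries 2 and 3 on the log2(CPM + 1) scale. Vegfb (62.6% GC), Fgf21 (54.5%) and Fgfrl1 (57.8%) lay 1.09, 1.21 and 0.89 above it. Across the 26 members, GC content and this difference had a Spearman coefficient of 0.54, and across 14375 genes 0.61; the members share the same libraries, so these are descriptions. Once trends of the counts with transcript GC and length had been taken out, the coefficient was near 0 by construction (-0.006 over the members). The difference of Fgf2 then went from -1.80 to -0.96, that of Hgf from -1.43 to -0.41 and that of Pdgfd from -0.81 to 0.36. Pdgfc (50.7% GC) was at -1.47 before and -1.51 after, and Pdgfrl (44.2% GC) went from 0.93 to 1.46. Met went from -1.17 to -0.86 and Fgf13 from -0.98 to -0.72. Above 0, Vegfa went from 0.84 to 0.73 and Vegfc from 0.38 to 0.75. The median range over libraries became 0.71 for the members and 0.53 for all tested genes. With the trends removed, 0 members were called; the edgeR adjusted p of Pdgfrl was then 0.154, against 0.907 to 0.9999 under the other alternatives.

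**Figure D3:**
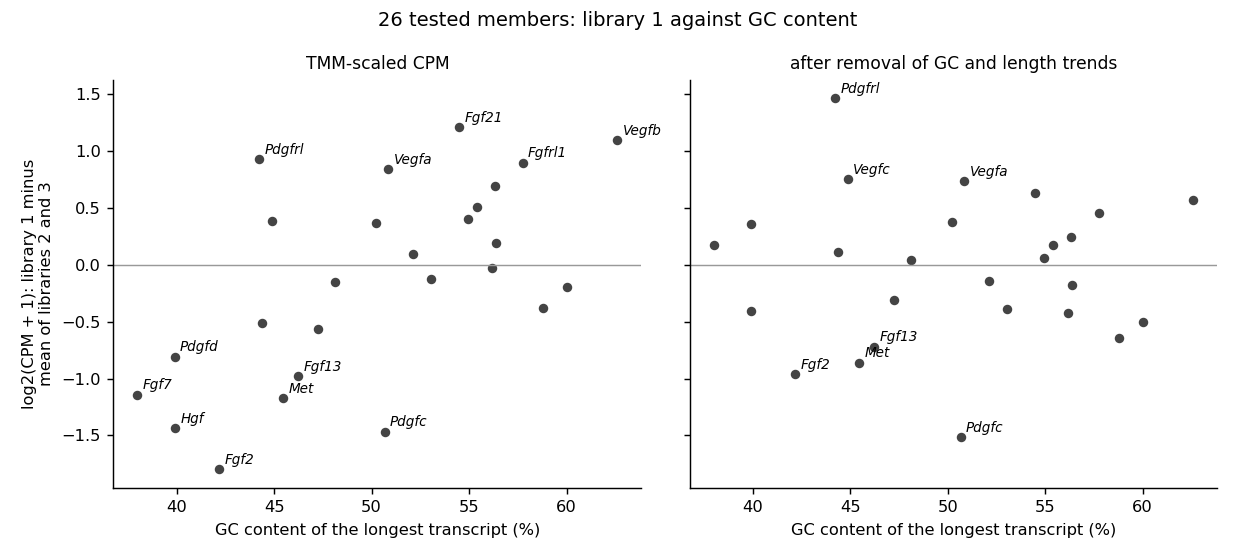
Difference of library 1 from the mean of libraries 2 and 3 in log2(CPM + 1) against the GC content (%) of the longest transcript, for 26 members, with trends in GC content and length left in (left) or taken out (right); names mark members beyond 0.7. Fgf2, Hgf, Fgf7 and Pdgfd lie low at low GC content on the left. On the right, Pdgfrl and Pdgfc lie farthest from 0, and Fgf2, Met, Fgf13, Vegfa and Vegfc also lie beyond 0.7.

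Genes that act with these families were taken from 7 lists of 66 genes, of which 65 were in the table under their symbol and 57 were tested. Spry3 was not analysed here. In all, 1 of the 57 was called variable between libraries, the FGF co-receptor Kl, beside 0.437% of all tested genes. At that share a short list will mostly hold no call, so a count of 0 says nothing particular about a list. Klotho, its product, serves the hormone-like FGF23, whose gene had no count in any library, and is a product of choroid plexus. Library 1 held 2.02 CPM of Kl, on 40 counts, where libraries 2 and 3 held 27.4 and 33.8 CPM, on 814 and 876 counts (edgeR adjusted p = 0.00364). Choroid plexus markers moved with it, at 129, 3315 and 5024 CPM, with Ttr at 32.6, 1594 and 2530 CPM and none of the 8 markers at 0; their part in the Kl level was not tested. Kl was not called without library 1 (edgeR adjusted p = 0.9996) or without library 3 (0.154), and was called without library 2 (0.0170) and under each alternative that kept all libraries (7.73e-06 to 0.00632). The related co-receptor Klb stayed between 0.463 and 1.14 CPM.

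The 4 other tested genes of the FGF co-receptor list, Klb and the Flrt genes, did not pass the test, and the carriers Fgfbp1 and Fgfbp3 were not tested. Flrt2, an adhesion molecule that can bind FGF receptors, was at 94.7, 148 and 154 CPM, Flrt1 at 55.3, 33.7 and 25.9 CPM and Flrt3 at 13.99, 27.0 and 29.3 CPM. The secreted carriers Fgfbp1 and Fgfbp3 stayed at or below 1.003 CPM. Of the adaptors that couple receptors to RAS, 0 of 11 were called variable, beside 0.437% of all tested genes. Shc1 was at 643, 491 and 629 CPM, the phosphatase gene Ptpn11 at 33.4, 40.1 and 36.1 CPM, and Frs2, the docking protein of FGF receptors, at 22.9, 47.0 and 33.9 CPM.

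Feedback inhibitors and targets of ERK signalling had a median log2(CPM + 1) of 2.75, beside 4.18 for all tested genes. Of 13 tested, 0 were called variable, beside 0.437% of all tested genes. Dusp6, a phosphatase that inactivates ERK and is induced by FGF signalling, was at 47.9, 53.6 and 65.4 CPM. Spred1 was at 5.30, 25.3 and 17.0 CPM (edgeR adjusted p = 0.496) and Spred2 at 15.8, 14.6 and 11.4 CPM. The Sprouty genes Spry1, Spry2 and Spry4 lay between 4.04 and 12.1 CPM, and the transcription factor genes Etv1, Etv4 and Etv5 between 0.773 and 11.9 CPM. These levels are those of all sorted cells together.

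Proteases that release the latent ligands showed 1 abundant member. Of 6 tested genes of that list, 0 were called variable, beside 0.437% of all tested genes. Plat, tissue plasminogen activator, which cleaves PDGF-C, was at 412, 280 and 343 CPM. Plau, which cleaves PDGF-D, was at 6.97, 2.69 and 2.74 CPM. The inhibitor gene Spint2 was at 4.90, 8.54 and 14.8 CPM. Hgfac, the HGF activator, had no count.

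Hypoxia-response genes, of which Vegfa is a classical example, gave 0 of 9 calls, beside 0.437% of all tested genes. Epas1, a hypoxia-inducible factor, was at 348, 244 and 283 CPM, and the glucose transporter gene Slc2a1 at 66.1, 49.1 and 65.7 CPM. Adm, which encodes adrenomedullin, was at 125, 66.4 and 49.8 CPM (edgeR adjusted p = 0.877). No order of libraries was common to the list: of the 9 tested genes, 4 were lowest in library 1, 3 in library 2 and 2 in library 3. Hif1a, the other hypoxia-inducible factor, was at 12.7, 71.0 and 37.4 CPM (edgeR adjusted p = 0.183), lowest in library 1. Its difference of library 1 from the mean of libraries 2 and 3 in log2(CPM + 1) was -1.94. With GC and length trends removed it was -0.97. Whether these genes bear on the Vegfa level was not tested.

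**Figure D4:**
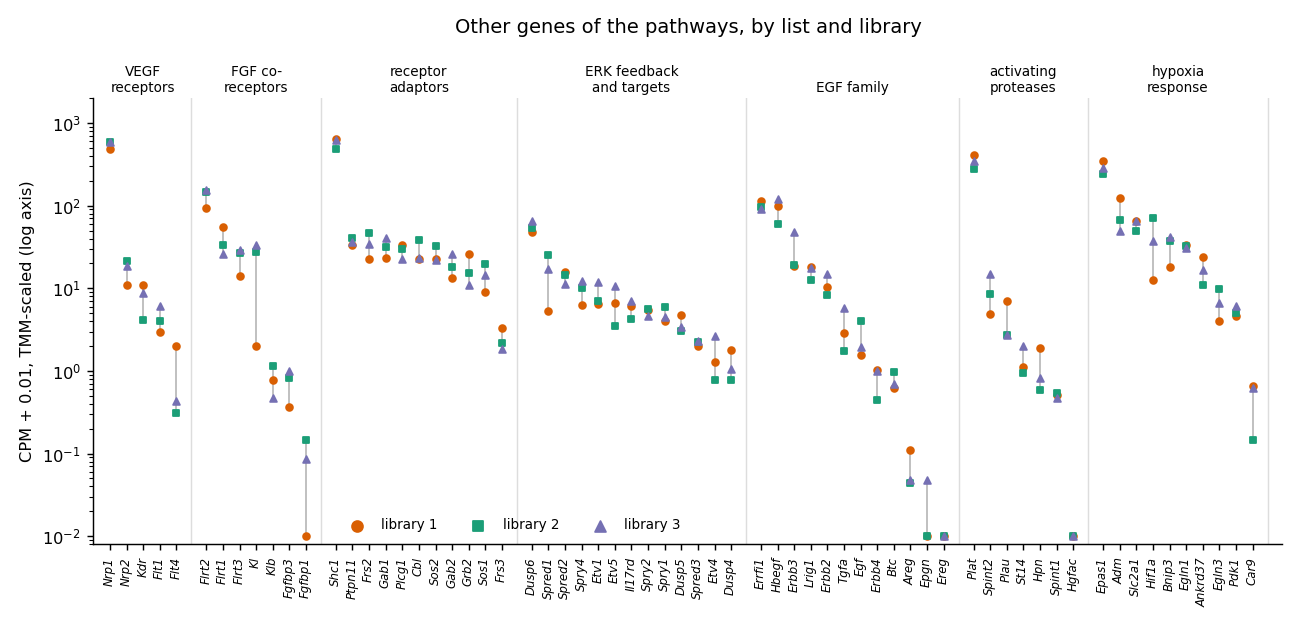
TMM-scaled CPM plus 0.01 (log axis) of 65 genes in 7 pathway lists, with 1 symbol per library and a grey line from lowest to highest. Nrp1, Shc1, Plat and Epas1 lead their lists, and Kl is the gene with the widest gap between library 1 and the others.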

How the data were processed

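Gene counts were used as deposited by the authors: whole-number counts per gene, for 3 libraries. Per the labels, the processed data were normalized; the values used here were taken as raw because they are whole numbers, sum to different totals and stand beside the read-counter's rows for unassigned reads. Per the submitters' processing notes, the build was mm10 and the tools were HTSeq 0.5.3 and DESeq2 1.22.1; the aligner, the annotation release and the strand setting are not given in the sources used here. Per the labels' protocols, cDNA was amplified with a template-switching low-input kit. Rows for reads assigned to no gene (39.1% to 45.6% of each column) were left out.

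Counts were scaled by TMM and filtered with filterByExpr (minimum count 10) in edgeR 4.0.16 under R 4.3.3, leaving 14409 genes. With 1 group there is no contrast, so differences between libraries were tested by goodness of fit at the trended dispersion (Benjamini-Hochberg, threshold 0.05). The test was also run on counts simulated at the dispersions fitted to these libraries and at lower ones. The outcome of that run is not given here, so it says nothing of the test's power. Exon lengths, GC content and coordinates are from GENCODE M21 (GRCm38), matched by identifier for 46488 of 46983 genes and all 41 members. Alternatives were DESeq2 1.42.0 size factors, plain totals, other filters, dispersions and lengths, removal of GC and length trends by loess (span 0.4), and each library left out. All members are named; of each pathway list the 3 most abundant genes and every gene called were named, and of each marker list the 2 most abundant. Further genes were named after their values were seen. Members and lists were chosen with earlier results of these data known. PCR duplicates were not marked by molecular identifiers. Of the pathway and marker lists, 2 genes are not reported here and were left out of their lists' counts and sums.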

Additional observations from a re-analysis of the deposited data

How the results depend on the processing

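No member was called variable between libraries under any of the 9 alternatives, with 26 to 35 members tested. The number of pathway genes called (1, Kl) was 1 under the 6 alternatives that kept all libraries and ranged from 0 to 1 when each replicate was left out, in fits with fewer samples. Of all genes, 63 were called, and 134 without a filter, 181 with a mean count of at least 10, 110 with GC and length trends removed, and 12 to 28 with a replicate left out. Members past the filter (26) numbered 26 to 29 and members above 1 CPM (27) numbered 22 to 30. The share of the 5 leading members (76.7%) was 82.6% per kilobase of exon, which replaces Fgfr1 by Pdgfd among the 5. All 91 alternatives for the 13 differences between genes kept the direction of the mean; for Vegfc minus Vegfd, with the longest transcript as the length (0.43), the libraries no longer all had the same sign; since 3 libraries cannot pass the test, its p says nothing of stability. Values moved over 1.5-fold without division by length for Pdgfra minus Pdgfrb (-2.14), Fgfr1 minus Fgfr4 (6.41), Fgfr1 minus Fgfrl1 (3.24) and Vegfa minus Vegfb (2.96). A pseudocount of 1, which shrinks low genes, gave 3.58 for Fgfr1 minus Fgfr4, 1.30 for Pdgfa minus Pdgfb, 1.37 for Pdgfa minus Pdgfc and -4.60 for Pdgfc minus Pdgfd. No paired analysis was possible because a single group was sampled. Of the 15 members that did not pass the filter, 9 were tested without a filter, with 0 called; the other 6 had no count.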
